A study of Homo sapiens with 10 samples.

Results

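The genes described here are 10 regulators of the G1 phase of the cell cycle: the D-type cyclins *CCND1*, *CCND2* and *CCND3*, the E-type cyclins *CCNE1* and *CCNE2*, the cyclin-dependent kinases *CDK2*, *CDK4* and *CDK6*, and the kinase inhibitors *CDKN1A* and *CDKN1B*. They were chosen by name, with earlier results of these data known, and all 10 were found among the 59386 genes counted in each library. Polyadenylated RNA of the human prostate cancer line VCaP was sequenced 72 h after siRNAs were introduced with a lipid reagent. The chromatin remodelling ATPase *SMARCA4* (BRG1, of SWI/SNF complexes) was targeted with siRNA A or siRNA B, and *SMARCA1* (SNF2L, of ISWI complexes) with siRNA A or siRNA C, at 30 pmol each. Each siRNA and the control gave 2 libraries, 10 in all, so that each knockdown had 4 libraries against 2 controls. The siRNA and dose given to the control cells are not named in the labels, and nothing states that replicate libraries came from separate cultures, so p-values measure only the spread between these libraries.

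Cells leave G1 when cyclin-dependent kinases, switched on by their cyclin partners, phosphorylate the retinoblastoma protein and its relatives and so release E2F transcription factors. The D-type cyclins pair with CDK4 and CDK6 and carry growth signals to the cell cycle, and the E-type cyclins pair with CDK2 at the entry into S phase. CDKN1A (p21, induced by many stress and differentiation signals) and CDKN1B (p27, held mainly by protein turnover) bind these complexes and restrain CDK2. In prostate cancer cells the androgen receptor drives G1 progression in part through the D-type cyclins.

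Knockdown of either remodeller was accompanied by higher *CCND3* and *CDKN1A* RNA, while *CDK4* fell with *SMARCA4* knockdown. *CCND3* was 3.33-fold higher in *SMARCA4* knockdown and 3.13-fold higher in *SMARCA1* knockdown than in the controls. *CDKN1A* was 1.76-fold and 3.40-fold higher, and *CDK4* was 2.06-fold lower in *SMARCA4* knockdown. Smaller changes called in *SMARCA4* knockdown were a rise of *CDKN1B* (1.25-fold) and a fall of *CDK2* (1.24-fold). In these RNA pools of many cells, fewer cells in a state and less RNA per cell cannot be told apart.

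Of the 10 genes, 9 had enough counts to be tested. In *SMARCA4* knockdown, 5 of the 9 passed an adjusted p of 0.05 (edgeR quasi-likelihood test, Benjamini-Hochberg over 16899 genes), 3 higher and 2 lower, where 45.1% of all tested genes passed (22.8% higher and 22.3% lower). In *SMARCA1* knockdown, 2 of 9 passed, both higher, against 46.8% of all tested genes (23.8% higher and 23% lower). Between the knockdowns, 3 of 9 passed, 1 higher and 2 lower in *SMARCA4* knockdown, against 35.4% of all tested genes (16.3% higher and 19.1% lower). The median log2 fold change of the 9 genes was 0.16, 0.01 and -0.08 in these 3 comparisons, beside 0.002, -0.004 and -0.01 over all tested genes. The share of genes passing was thus near the background in *SMARCA4* knockdown and between the knockdowns, and below it in *SMARCA1* knockdown. The knockdowns share their control libraries. Without control replicate 1 or control replicate 2 only *CCND3* and *CDK4*, 2 of 9, passed in *SMARCA4* knockdown, while the number over all genes went from 7616 to 4413 and 4913. The lone control is then assumed to vary like the other groups.

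**Figure D1:**
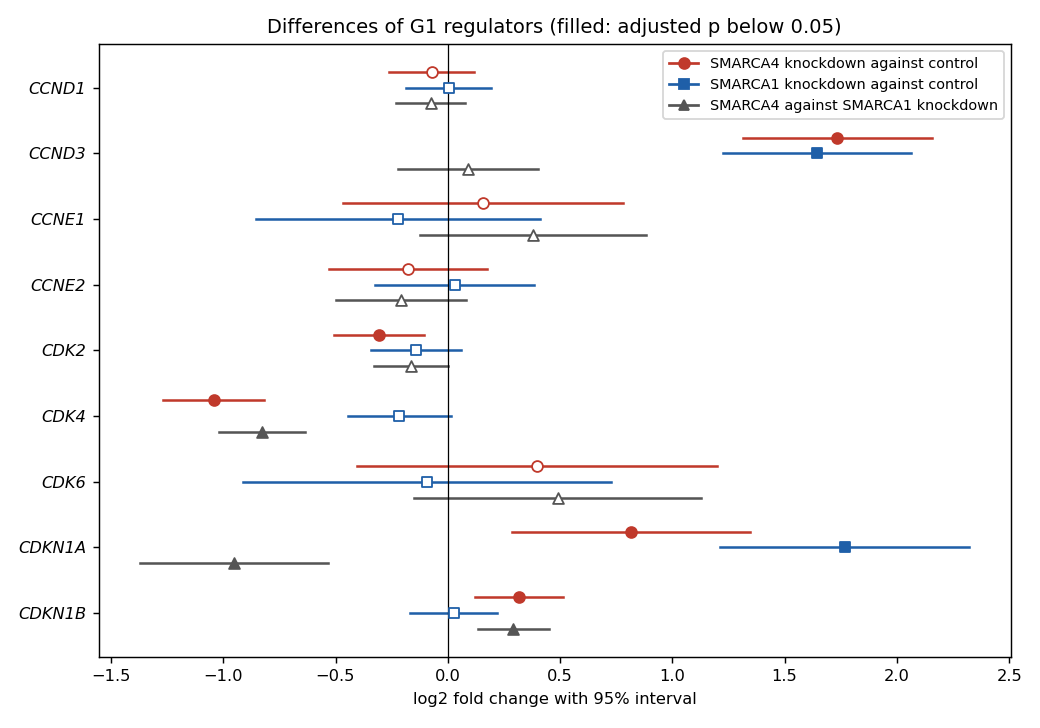
Log2 fold change of each tested gene (points) with its 95% interval (lines) for *SMARCA4* knockdown against control, *SMARCA1* knockdown against control and *SMARCA4* against *SMARCA1* knockdown; filled points have an adjusted p below 0.05. *CCND3* lies at 1.73 and 1.64 against control, *CDK4* at -1.04 in *SMARCA4* knockdown and -0.22 in *SMARCA1* knockdown, and *CDKN1A* at 0.81 and 1.77.

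The labels were checked on the targeted genes. *SMARCA4* measured 242 and 268 CPM in the controls (reads of a gene relative to all counted reads, after TMM, a method that corrects library totals for composition) and between 13.3 and 25.2 CPM in the 4 *SMARCA4* knockdown libraries. *SMARCA1* measured 32.3 and 31.5 CPM in the controls and between 1.75 and 3.40 CPM in the 4 *SMARCA1* knockdown libraries. It was also higher in *SMARCA4* knockdown, at 57.4 to 83.8 CPM (log2 fold change 1.07, adjusted p = 0.001). Total counts per library lay between 23898545 and 34667965, and 3 counts, the upper limit for a gene without counts, came to 0.0865 to 0.126 CPM, for counting error only. All 10 prostate luminal markers were above 10 CPM in every library, but their levels changed. In *SMARCA4* knockdown 5 rose and 1 fell, and in *SMARCA1* knockdown 2 rose and 4 fell. That was 60% of the list in each, against 45.1% and 46.8% of all tested genes. *KRT8* rose by a log2 fold change of 1.66 and 1.99, and *FOLH1* fell by 0.86 and 1.78. Among 10 markers of other cell types, *PTPRC*, *CD3E* and *KRT5* had at most 1 count in any library. Of those 10 markers, 6 were below 1 CPM in every library and the others were not: *CHGA*, a neuroendocrine marker, lay between 13.2 and 45.0 CPM and *COL1A1*, a fibroblast marker, between 4.14 and 18.5 CPM. The 10 together took 0.00201% to 0.00287% of counts in the controls, 0.00253% to 0.00621% in *SMARCA4* knockdown and 0.00308% to 0.00539% in *SMARCA1* knockdown. Of 6 tested, 2 rose in *SMARCA4* knockdown (*CHGA* by a log2 fold change of 0.88, adjusted p = 0.0158), and 2 rose and 1 fell in *SMARCA1* knockdown (*COL1A1* rose by 1.21, adjusted p = 0.0035). The marker that fell was *COL1A2*, also of fibroblasts (log2 fold change -7.38, adjusted p = 0.0069, edgeR). It was low, at 0.627 and 3.42 CPM in the controls and at most 0.064 CPM in *SMARCA1* knockdown. The part of these 10 markers in the results below was not tested. The 22 listed interferon response genes rose in both knockdowns (22 of 22 in each, median log2 fold change 7.76 and 8.02) and took 0.0304% and 0.0314% of counts in the controls, 1.63% to 4.25% in *SMARCA4* knockdown and 2.29% to 4.22% in *SMARCA1* knockdown.

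The promoters of *CDK4*, *CDKN1A* and *CDKN1B* are shown because these are the 3 genes whose RNA differed between the knockdowns. Each window runs from 250 bases before to 50 bases after a transcription start, on the strand of the gene, from RefSeq on GRCh38.p14. Capitals mark the E-box CACGTG, the GC box GGGCGG and the CCAAT box, on either strand. The windows are chr12:57752261-57752560 (minus strand) for *CDK4*, chr6:36678464-36678763 (plus strand) for *CDKN1A* and chr12:12717118-12717417 (plus strand) for *CDKN1B*.
CDK4: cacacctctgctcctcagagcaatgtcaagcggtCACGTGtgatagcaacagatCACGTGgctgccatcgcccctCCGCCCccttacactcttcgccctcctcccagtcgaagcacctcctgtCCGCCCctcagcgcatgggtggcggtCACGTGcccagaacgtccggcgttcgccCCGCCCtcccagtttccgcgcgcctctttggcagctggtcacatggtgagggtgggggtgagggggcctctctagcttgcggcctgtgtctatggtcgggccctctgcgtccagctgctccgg
CDKN1A: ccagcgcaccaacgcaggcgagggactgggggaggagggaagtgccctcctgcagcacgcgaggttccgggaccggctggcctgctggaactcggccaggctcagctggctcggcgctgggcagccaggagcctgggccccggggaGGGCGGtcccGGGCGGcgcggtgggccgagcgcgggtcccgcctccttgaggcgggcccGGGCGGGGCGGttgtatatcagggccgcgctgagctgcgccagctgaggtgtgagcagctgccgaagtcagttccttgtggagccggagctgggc
CDKN1B: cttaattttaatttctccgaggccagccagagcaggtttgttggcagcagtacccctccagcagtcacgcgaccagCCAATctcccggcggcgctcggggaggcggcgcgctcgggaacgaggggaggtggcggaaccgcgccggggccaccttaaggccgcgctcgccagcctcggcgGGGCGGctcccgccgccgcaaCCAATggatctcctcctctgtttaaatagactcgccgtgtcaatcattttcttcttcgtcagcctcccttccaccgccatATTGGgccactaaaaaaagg
The *CDK4* window held 3 E-boxes, which begin 216, 196 and 101 bases before the start, and 7.26% of the 35116 promoters of the table hold at least 1. It also held 3 GC boxes, at 175, 127 and 73 bases before the start. The *CDKN1A* window held 4 GC boxes, at 104, 94, 45 and 40 bases before the start, the last pair sharing a base, and 45.0% of promoters hold at least 1. The *CDKN1B* window held 1 GC box, 71 bases before the start, and 3 CCAAT boxes, at 174 and 50 bases before and 30 after it, a motif in 34.6% of promoters. E-boxes are letters that factors of the MYC family can bind, GC boxes those of SP1 and its relatives, and CCAAT boxes those of NF-Y. Windows were matched for 6 of the 10 genes, 9 windows in all (3 for *CCND3* and 2 for *CDK6*). None of the 9 held TATAAA, TGACGTCA, TTCNNNGAA, the core of the interferon-stimulated response element (TTTC, any 2 bases, TTTC), TTTCGCGC, TTTGGCGC or TTTCCCGC on either strand, and a match or its absence describes only the letters in these windows.

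Among the D-type cyclins, *CCND1* (ENSG00000110092.4, GRCh38 chromosome 11, 69641156 to 69654474) was the most abundant of the 10 genes per length. In the controls it measured 1172 and 1163 CPM. In *SMARCA4* knockdown it measured 1197 and 1174 CPM with siRNA A and 1042 and 1038 CPM with siRNA B, and in *SMARCA1* knockdown 1094 and 1199 CPM with siRNA A and 1183 and 1210.4 CPM with siRNA C. The libraries of *SMARCA4* siRNA B were the lowest of the 10, and the others surrounded the controls. The log2 fold change was -0.07 in *SMARCA4* knockdown (95% interval -0.26 to 0.12, adjusted p = 0.52) and 0.01 in *SMARCA1* knockdown (95% interval -0.18 to 0.19, adjusted p = 0.96). Between the siRNAs of *SMARCA4*, siRNA A was above siRNA B by 0.19 (SE 0.10, adjusted p = 0.27).

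*CCND3* (ENSG00000112576.13, chromosome 6, 41934934 to 42050357), the D-type cyclin best known from lymphoid cells and often present beside *CCND1* elsewhere, measured 20.2 and 22.7 CPM in the controls. In *SMARCA4* knockdown it measured 68.5 and 44.0 CPM with siRNA A and 95.5 and 86.2 CPM with siRNA B. In *SMARCA1* knockdown it measured 66.3 and 50.2 CPM with siRNA A and 77.8 and 77.0 CPM with siRNA C. All 8 knockdown libraries lay above both controls. *CCND3* rose by a log2 fold change of 1.73 (SE 0.19, adjusted p = 8.29e-05) in *SMARCA4* knockdown and 1.64 (SE 0.19, adjusted p = 0.000148) in *SMARCA1* knockdown. The difference between the knockdowns was 0.09 (95% interval -0.22 to 0.40, adjusted p = 0.64). With *SMARCA4* siRNA A the level was below that with siRNA B by 0.69 on the log2 scale (SE 0.20, adjusted p = 0.066). This difference passed in 6 of 16 alternatives: without *SMARCA4* siRNA A replicate 1 (-1.04, adjusted p = 0.0123), without *SMARCA1* siRNA A replicate 1 or 2 (adjusted p = 0.0201 and 0.0212), with DESeq2 (adjusted p = 0.0126), with no filter on low counts (adjusted p = 0.000201) and with the replicate block (-0.71, adjusted p = 0.0388).

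The interferon response genes moved with *CCND3*. In 3 of the 4 siRNA pairs, the library with more *CCND3* also had the larger share of counts from those 22 genes: 3.20% against 1.63% for *SMARCA4* siRNA A, 4.25% against 3.70% for *SMARCA4* siRNA B and 2.54% against 2.29% for *SMARCA1* siRNA A. In each of these 3 pairs it was the library of replicate 1. The 2 libraries of *SMARCA1* siRNA C were close in both measures, with shares of 4.18% and 4.22%. The part of this response in the *CCND3* result was not tested.

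*CCND2* (ENSG00000118971.9, chromosome 12, 4269771 to 4305353), the third D-type cyclin, was at or below the floor of 3 counts in 9 of 10 libraries and had 6 counts in *SMARCA4* siRNA B replicate 2. It did not pass the filter on low counts, and no fold is given. Summed per kilobase of exon, the D-type cyclins were therefore nearly all *CCND1*. *CCND3* made up 1.5% ± 0.13 (SD, n = 2) of the sum in the controls, 5.24% ± 1.84 (SD, n = 4) in *SMARCA4* knockdown and 4.56% ± 0.83 (SD, n = 4) in *SMARCA1* knockdown. The sum itself was 249 ± 1.04, 247 ± 14.7 and 258 ± 11.5 CPM per kilobase, so the rise of *CCND3* was small beside the level of *CCND1*.

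**Figure D2:**
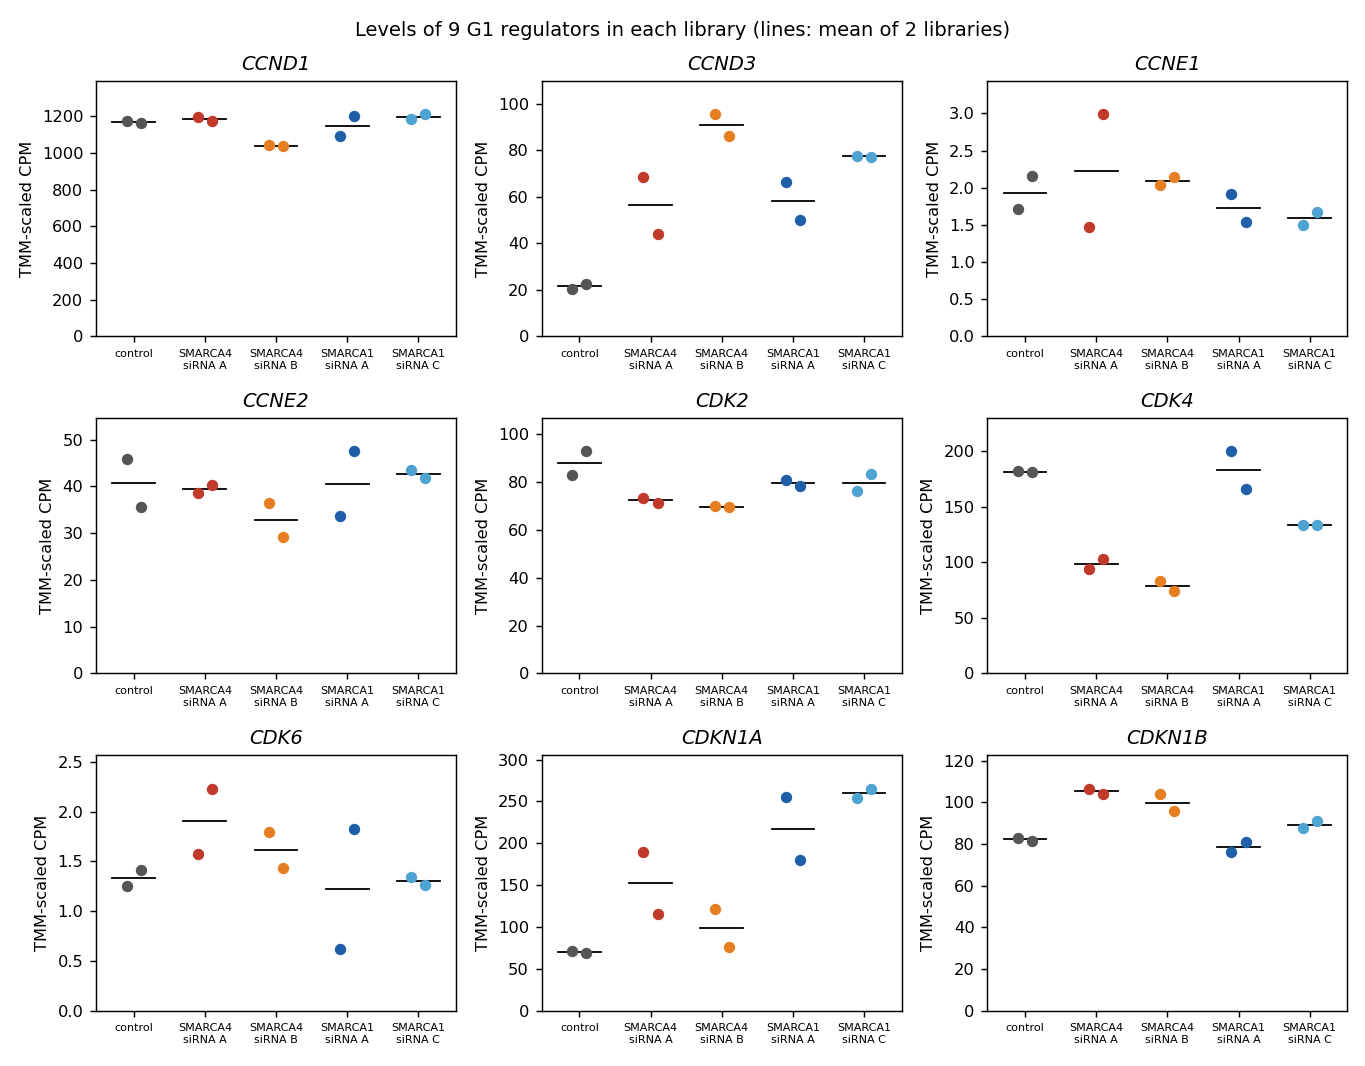
TMM-scaled CPM (vertical axes, from 0) of 9 of the genes in each of the 10 libraries (points), by siRNA; lines are the mean of 2 libraries. All 8 knockdown libraries lie above the controls for *CCND3* and *CDKN1A*, and the 4 *SMARCA4* knockdown libraries lie below the controls for *CDK4* and *CDK2*.

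The E-type cyclins did not pass the test in any of these comparisons. *CCNE2* (ENSG00000175305.18, chromosome 8, 94879770 to 94896678) was the main E-type cyclin, with 92.0% ± 2.5 (SD, n = 2) of their sum per kilobase in the controls. It measured 45.8 and 35.6 CPM in the controls, 38.6 and 40.3 CPM with *SMARCA4* siRNA A and 36.4 and 29.1 CPM with siRNA B. With *SMARCA1* siRNA A it measured 33.7 and 47.4 CPM, and with siRNA C 43.5 and 41.7 CPM. The groups overlapped, and the log2 fold changes were -0.18 (95% interval -0.53 to 0.17, adjusted p = 0.38) and 0.03 (95% interval -0.32 to 0.38, adjusted p = 0.89). Between the knockdowns it was lower in *SMARCA4* knockdown by 0.21 (adjusted p = 0.23), which passed only without *SMARCA1* siRNA A replicate 1 (-0.31, adjusted p = 0.0428). Exons of *INTS8* on the opposite strand cover 37.0% of its exon bases, and *INTS8* lay between 115 and 153 CPM. *INTS8*, like *TSPAN31* below, was chosen after its values were seen.

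*CCNE1* (ENSG00000105173.14, chromosome 19, 29811991 to 29824312) had only 38 to 95 counts a library. It measured 1.72 and 2.16 CPM in the controls, 1.47 and 2.99 CPM with *SMARCA4* siRNA A, 2.04 and 2.14 CPM with siRNA B, 1.92 and 1.54 CPM with *SMARCA1* siRNA A and 1.5 and 1.68 CPM with siRNA C. Replicates of *SMARCA4* siRNA A differed more than the group means did. The log2 fold change was 0.16 (95% interval -0.47 to 0.78, adjusted p = 0.68) in *SMARCA4* knockdown and -0.22 (95% interval -0.85 to 0.41, adjusted p = 0.54) in *SMARCA1* knockdown. Between the knockdowns it was 0.38 (SE 0.23, adjusted p = 0.22), and without *SMARCA4* siRNA A replicate 1 it was 0.60 (adjusted p = 0.0315).

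Among the kinases, *CDK4* (ENSG00000135446.17, chromosome 12, 57747727 to 57756013), the partner of the D-type cyclins, separated the knockdowns. It measured 182 and 181 CPM in the controls. In *SMARCA4* knockdown it measured 94.4 and 103 CPM with siRNA A and 83.5 and 74.1 CPM with siRNA B. In *SMARCA1* knockdown it measured 200.0 and 166 CPM with siRNA A and 134 CPM in both libraries with siRNA C. Every *SMARCA4* knockdown library lay below every other library. *CDK4* fell by 1.04 on the log2 scale in *SMARCA4* knockdown (SE 0.10, adjusted p = 4.19e-05) and was 0.83 below its level in *SMARCA1* knockdown (SE 0.09, adjusted p = 0.000156).

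In *SMARCA1* knockdown as a whole *CDK4* had a log2 fold change of -0.22 (95% interval -0.45 to 0.01, adjusted p = 0.11). The siRNAs differed in value: with siRNA C *CDK4* fell by 0.44 (SE 0.12, adjusted p = 0.0132), and with siRNA A it was at 0.01 (SE 0.12, adjusted p = 0.95). The difference between siRNA A and siRNA C was 0.45 (SE 0.12, adjusted p = 0.14), and it passed without *SMARCA1* siRNA A replicate 2 (0.61, adjusted p = 0.0106), with DESeq2 (adjusted p = 0.0405) and with no filter on low counts (adjusted p = 0.0264). Without *SMARCA1* siRNA A replicate 1 the whole knockdown passed (-0.29, adjusted p = 0.0115). On the opposite strand, exons of *TSPAN31* cover 44.2% of the exon bases of *CDK4*. *TSPAN31* lay between 8.6 and 12.1 CPM, with a log2 fold change whose adjusted p was 0.066 in *SMARCA4* knockdown, so its level was small beside that of *CDK4*.

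*CDK2* (ENSG00000123374.11, chromosome 12, 55966781 to 55972789), the partner of the E-type and A-type cyclins, measured 82.6 and 92.6 CPM in the controls. It measured 73.3 and 71.1 CPM with *SMARCA4* siRNA A and 69.9 and 69.3 CPM with siRNA B, all below every other library. With *SMARCA1* siRNA A it measured 80.5 and 78.2 CPM, and with siRNA C 75.9 and 83.1 CPM, where the second library of siRNA C overlapped the controls. *CDK2* fell by 0.31 on the log2 scale in *SMARCA4* knockdown (SE 0.09, adjusted p = 0.0192). This call was lost without any 1 of the 4 *SMARCA4* knockdown libraries (adjusted p from 0.0637 to 0.087), without control replicate 1 (-0.35, adjusted p = 0.0599), without control replicate 2 (-0.19, adjusted p = 0.26) and with no filter on low counts (adjusted p = 0.0975). The fall of *CDK2* also did not pass with *SMARCA4* siRNA A alone (-0.28, adjusted p = 0.0659, edgeR). With siRNA B alone it passed (-0.33, adjusted p = 0.0267). In *SMARCA1* knockdown the log2 fold change was -0.14 (95% interval -0.34 to 0.06, adjusted p = 0.22), and the difference between the knockdowns was -0.16 (SE 0.07, adjusted p = 0.11).

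*CDK6* (ENSG00000105810.10, chromosome 7, 92604921 to 92836573), the other kinase of the D-type cyclins, was low, with 17 to 71 counts a library. It measured 1.26 and 1.41 CPM in the controls, 1.57 and 2.23 CPM with *SMARCA4* siRNA A, 1.79 and 1.44 CPM with siRNA B, 0.615 and 1.83 CPM with *SMARCA1* siRNA A and 1.34 and 1.26 CPM with siRNA C. The *SMARCA4* knockdown libraries lay above both controls, but the log2 fold change of 0.40 had a 95% interval of -0.41 to 1.20 (adjusted p = 0.40). In *SMARCA1* knockdown it was -0.09 (adjusted p = 0.85). The difference between the knockdowns was 0.49 (adjusted p = 0.21), and 0.98 without *SMARCA1* siRNA A replicate 2 (adjusted p = 0.00683). Per kilobase, *CDK4* made up at least 99.5% of the sum of both kinases in every group mean.

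*CDKN1A* (ENSG00000124762.14, chromosome 6, 36676460 to 36687337) measured 71.4 and 68.3 CPM in the controls. In *SMARCA4* knockdown it measured 189 and 116 CPM with siRNA A and 122 and 75.9 CPM with siRNA B. In *SMARCA1* knockdown it measured 255 and 180 CPM with siRNA A and 254 and 265 CPM with siRNA C. All 8 knockdown libraries lay above the controls, *SMARCA4* siRNA B replicate 2 by the least. *CDKN1A* rose by a log2 fold change of 0.81 in *SMARCA4* knockdown (SE 0.24, adjusted p = 0.0182) and 1.77 in *SMARCA1* knockdown (SE 0.25, adjusted p = 0.000427). *SMARCA4* knockdown lay below *SMARCA1* knockdown by 0.95 (SE 0.19, adjusted p = 0.00386), with 1 *SMARCA4* knockdown library above the lowest *SMARCA1* knockdown library.

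The rise of *CDKN1A* in *SMARCA4* knockdown was the less certain. With siRNA A alone it was 1.13 (SE 0.27, adjusted p = 0.00984), and with siRNA B alone 0.50 (SE 0.27, adjusted p = 0.15). The difference between these siRNAs was 0.62 (SE 0.26, adjusted p = 0.18), and it passed with no filter on low counts (adjusted p = 0.000577). Without control replicate 1 the log2 fold change was 0.88 (SE 0.33, adjusted p = 0.0838) and without control replicate 2 it was 0.81 (SE 0.33, adjusted p = 0.10), close to the value from both controls but with a larger error, where the lone control is assumed to vary like the other groups. Within each *SMARCA4* siRNA, the library with more *CDKN1A* also had the larger share of interferon response counts, and it was replicate 1 in both. Between the siRNAs this did not hold, since siRNA B had shares of 4.25% and 3.70% and the lower *CDKN1A* levels. The part of this response in the *CDKN1A* result was not tested.

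*CDKN1B* (ENSG00000111276.12, chromosome 12, 12685498 to 12722369) varied within a narrow range. It measured 83.0 and 81.5 CPM in the controls, 107 and 104 CPM with *SMARCA4* siRNA A, 104 and 95.7 CPM with siRNA B, 76.1 and 81.2 CPM with *SMARCA1* siRNA A and 87.5 and 91.0 CPM with siRNA C. Every *SMARCA4* knockdown library lay above every other library. *CDKN1B* rose by a log2 fold change of 0.32 in *SMARCA4* knockdown (SE 0.09, adjusted p = 0.0141) and was higher there than in *SMARCA1* knockdown by 0.29 (SE 0.07, adjusted p = 0.0105). In *SMARCA1* knockdown the log2 fold change was 0.03 (95% interval -0.17 to 0.22, adjusted p = 0.82). The first call was lost without control replicate 1 (0.37, SE 0.12, adjusted p = 0.0558) or control replicate 2 (0.33, SE 0.12, adjusted p = 0.0715), where the log2 fold change did not shrink and its error grew. The difference between the knockdowns was lost without *SMARCA1* siRNA C replicate 1 (0.28, SE 0.09, adjusted p = 0.0552).

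**Figure D3:**
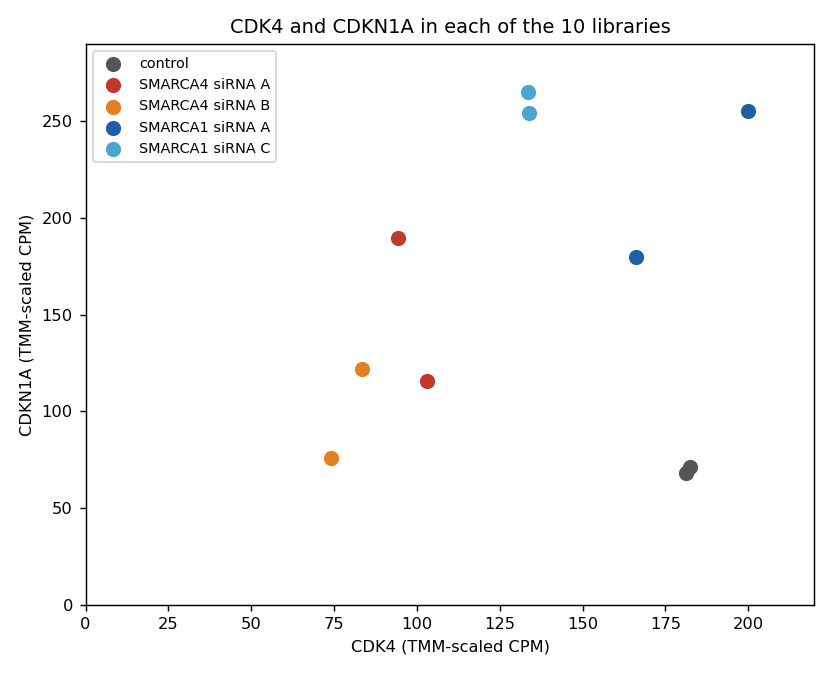
*CDKN1A* (vertical axis) against *CDK4* (horizontal axis), both in TMM-scaled CPM from 0, in each of the 10 libraries (points), coloured by siRNA. The controls lie at high *CDK4* and low *CDKN1A*, *SMARCA1* knockdown at 134 to 200.0 CPM of *CDK4* with 180 to 265 CPM of *CDKN1A*, and *SMARCA4* knockdown at 74.1 to 103 CPM of *CDK4* with 75.9 to 189 CPM of *CDKN1A*.

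The order of the genes was read per kilobase of exon, on the scale of CPM per kilobase. In the controls it ran from *CCND1* (245) through *CDK4* (58.7), *CDKN1A* (23.3), *CDK2* (22.5), *CCNE2* (9.26), *CDKN1B* (8.89), *CCND3* (3.73), *CCNE1* (0.786) and *CDK6* (0.109) to *CCND2*. The ranges of *CDKN1A* and *CDK2*, and of *CCNE2* and *CDKN1B*, overlapped. In both knockdowns *CDKN1A* stood in the second place, at 42.0 ± 15.7 (SD, n = 4) in *SMARCA4* and 79.7 ± 13.3 (SD, n = 4) in *SMARCA1* knockdown, with a range that overlapped that of *CDK4*. *CCND3* stood in the fifth place in both, at 12.8 ± 3.93 and 11.8 ± 2.23, overlapping its neighbour below.

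Ratios of these levels set inhibitors beside kinases at the RNA level. *CDKN1A* and *CDKN1B* together reached 32.2 ± 0.87 (SD, n = 2) CPM per kilobase in the controls, 53.1 ± 16.2 (SD, n = 4) in *SMARCA4* knockdown and 88.7 ± 13.5 (SD, n = 4) in *SMARCA1* knockdown. Relative to *CDK4* this sum was 0.548 ± 0.012, 1.84 ± 0.45 and 1.80 ± 0.51. The ratio was thus alike in value in the knockdowns, with the lower *CDK4* in *SMARCA4* knockdown and the higher *CDKN1A* in *SMARCA1* knockdown. Relative to *CDK2* it was 1.43 ± 0.15, 2.89 ± 0.81 and 4.34 ± 0.63. *CCND1* relative to *CDK4* was 4.17 ± 0.002, 8.22 ± 0.70 and 4.97 ± 1.09. These ratios use the levels tested above and are given as descriptions.

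The siRNAs of each target were first compared with the controls singly. Of 9 genes, 4 passed with *SMARCA4* siRNA A (33.2% of all tested genes), 4 with siRNA B (45%), 2 with *SMARCA1* siRNA A (34.8%) and 3 with siRNA C (45.3%). They were then compared with each other. For *SMARCA4* siRNA A against siRNA B, 0 of 9 genes passed in the edgeR test, where 6.2% of all tested genes passed. DESeq2 called 1 of the 9 (*CCND3*). Without *SMARCA1* siRNA A replicate 1 or replicate 2, which belong to neither group compared, 2 passed (*CCND3* and *CDK4*), and without *SMARCA4* siRNA A replicate 1 *CCND3* passed. For *SMARCA1* siRNA A against siRNA C, 0 of 9 passed, where 0.0118% of all tested genes passed, and DESeq2 called 1 (*CDK4*). Without *SMARCA1* siRNA A replicate 2, which leaves 1 library of that siRNA, the *CDK4* difference was 0.61 on the log2 scale. The target itself was reduced further by siRNA B, with *SMARCA4* at 25.2 and 23.2 CPM with siRNA A and 18.6 and 13.3 CPM with siRNA B (adjusted p = 0.0485).

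Genes that act beside these regulators were taken from lists. Of all tested genes, 45.1% passed in *SMARCA4* knockdown (22.8% higher and 22.3% lower). In *SMARCA1* knockdown 46.8% passed (23.8% higher and 23% lower). Only called genes with the largest rise or fall of a list in a comparison are named, so a gene named for 1 knockdown may also differ in the other. Each change given for a listed gene is on the log2 scale, and each passed the edgeR test. Of 13 pocket protein and E2F genes, through which G1 kinases act, 1 rose and 8 fell in *SMARCA4* knockdown, and 2 rose and 4 fell in *SMARCA1* knockdown (median log2 fold change -0.55 and -0.21). These genes were 69.2% and 46.2% of the list, the latter near the share of all tested genes. *E2F1*, an activator of S phase genes, fell from 91.4 ± 4.69 (SD, n = 2) to 54.4 ± 8.36 (SD, n = 4) CPM in *SMARCA4* knockdown, by 0.76 on the log2 scale (SE 0.11, adjusted p = 0.000474). *E2F4*, mostly a repressor with pocket proteins, rose by a log2 fold change of 0.38 and 0.37 in the knockdowns. *RBL2* (p130), a pocket protein of resting cells, fell by 0.83 in *SMARCA1* knockdown. In *SMARCA4* knockdown *RBL2* lay at 48.1 to 69.0 CPM, also below the controls (74.7 and 78.8 CPM). *E2F2*, another activator, stood 0.77 lower under *SMARCA4* knockdown than under *SMARCA1* knockdown.

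Of 6 other CDK inhibitor genes, 1 rose and 3 fell in *SMARCA4* knockdown, and 2 rose and 1 fell in *SMARCA1* knockdown (median -0.12 and 0.27). That was 66.7% and 50% of the list, against 45.1% and 46.8% of all tested genes. *CDKN2B* (p15), an inhibitor of CDK4 and CDK6, rose in both, from 2.61 ± 0.69 (SD, n = 2) CPM to 8.02 ± 1.09 and 8.49 ± 0.78 (SD, n = 4), a log2 fold change of 1.62 and 1.71. *CDKN3*, a phosphatase of CDKs that is high in dividing cells, fell by 1.22 and 0.99. *CDKN2A*, the locus of p16, stood 1.02 lower under *SMARCA4* knockdown than under *SMARCA1* knockdown. Its level was low, at 3.43 ± 0.41 and 6.98 ± 0.98 (SD, n = 4) CPM. This comparison does not say which knockdown departed from the controls.

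Later cyclins fell. Of 4 tested genes of the S, G2 and M cyclins and *CDK1*, 4 fell in *SMARCA4* knockdown and 3 in *SMARCA1* knockdown (median -0.88 and -0.60). *CCNA2*, the cyclin of S phase and G2, went from 96.8 ± 9.96 (SD, n = 2) CPM to 32.1 ± 8.16 in *SMARCA4* knockdown and 54.7 ± 8.39 in *SMARCA1* knockdown (SD, n = 4). This was a fall by 1.63 and by 0.83 on the log2 scale, and the difference between the knockdowns was -0.80 (SE 0.09, adjusted p = 0.000241). Of 43 S phase genes, 35 fell and 0 rose in *SMARCA4* knockdown and 21 fell and 1 rose in *SMARCA1* knockdown, with a median log2 fold change of -0.70 and -0.33. Of 54 G2/M genes, 47 fell and 0 rose, and 45 fell and 1 rose, with a median of -0.80 and -0.63.

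Genes that switch CDKs on or off by phosphorylation were mixed. Of 9, 3 fell in *SMARCA4* knockdown, and 2 rose and 2 fell in *SMARCA1* knockdown (median -0.14 and -0.08). The called genes were 33.3% and 44.4% of this list, below and near the share of all tested genes. The phosphatase gene *CDC25C* fell by 0.72 in *SMARCA4* knockdown. *CDC25A*, the phosphatase that activates CDK2, fell by 0.93 in *SMARCA1* knockdown, and *CDK7*, the CDK-activating kinase, rose by a log2 fold change of 0.47 there. In *SMARCA4* knockdown *CDC25A* lay at 60.1 to 74.2 CPM, also below the controls (97.1 and 100.9 CPM). The inhibitory kinase *PKMYT1* stood 0.61 lower under *SMARCA4* knockdown than under *SMARCA1* knockdown.

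Of 12 genes for the turnover of cyclins and inhibitors, 2 rose and 4 fell in *SMARCA4* knockdown, and 4 rose and 3 fell in *SMARCA1* knockdown (median -0.06 and 0.01). They made up 50% and 58.3% of the list, against 45.1% and 46.8% of all tested genes. *AMBRA1*, the ligase adaptor that leads D-type cyclins to degradation, rose in both, from 41.6 ± 2.47 (SD, n = 2) CPM to 96.6 ± 18.0 and 105 ± 16.0 (SD, n = 4), a log2 fold change of 1.20 and 1.32. *SKP2*, the ligase subunit that recognises CDKN1B, fell by 0.94 in *SMARCA1* knockdown. *CKS2*, a small CDK-binding subunit, fell by 0.87 in *SMARCA4* knockdown. In *SMARCA1* knockdown *CKS2* lay at 35.0 to 41.8 CPM, also below the controls (43.5 and 50.8 CPM).

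**Figure D4:**
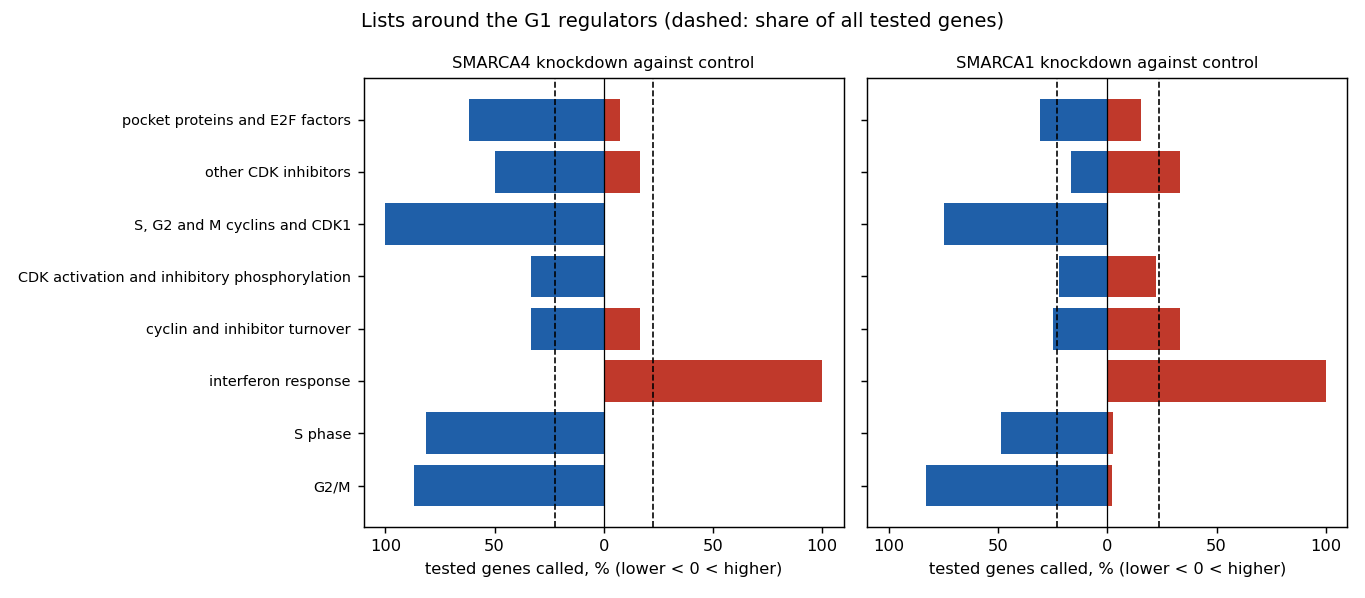
Share of the tested genes of each list that passed an adjusted p of 0.05, lower to the left and higher to the right (horizontal axis, percent), in *SMARCA4* knockdown and in *SMARCA1* knockdown against control; dashed lines give the same share over all tested genes. The S phase and G2/M lists extend to the left and the interferon response list, at 22 of 22 genes, to the right in both panels.

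The genes with the most similar profile were sought for the 5 regulators whose highest and lowest libraries differed at least 2-fold, among 13646 genes of at least 1 CPM, by the root mean square difference of centred log2 CPM over the 10 libraries. Nearest to *CDK4* were *FBL*, the methyltransferase of box C/D ribonucleoproteins in the nucleolus, and *EBNA1BP2*, a factor of ribosome assembly, at 0.057 and 0.060, where the profile of *CDK4* itself had a root mean square of 0.49. *FBL* fell by 1.09 in *SMARCA4* knockdown and *EBNA1BP2* by 1.02, which follows from their choice on these same libraries. In *SMARCA1* knockdown they stood at -0.29 (adjusted p = 0.0384, edgeR) and -0.19 (adjusted p = 0.20). Nearest to *CCND3* were *MOV10*, an RNA helicase, and *TJP3*, a tight junction protein, at 0.115 and 0.127 against 0.74. Nearest to *CDKN1A* were *ARRDC2*, an arrestin-domain protein, and *AKR1C1*, a steroid-metabolising reductase, at 0.0997 and 0.21 against 0.75. For *CCNE1* (*PNPLA6* and *BCAM*, 0.17 each, against 0.29) and *CDK6* (*CTD-3099C6.13* and *SECISBP2L*, 0.17 and 0.18, against 0.44) the match was looser, at low counts.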

How the data were processed

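RNA was measured in 10 libraries of VCaP cells, grouped by the target and siRNA in their labels. The authors selected polyadenylated RNA, prepared strand-specific libraries, aligned reads to GRCh38 (hg38) with HISAT2 2.1.0 and counted them per gene with featureCounts 1.5.2 on GENCODE exons with *IGF1R-AS1* added (versions from the submitters' processing notes, the GENCODE release not given in the sources used here). The deposited values are raw counts of 59386 genes, with gene positions and exon lengths per the file headers. Of 809 genes nested within opposite-strand exons, 216 (26.7%) reached 10 counts, and the strand setting of the counting is not given.

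In R 4.3.3 with edgeR 4.0.16, filterByExpr (minimum count 10, minimum total 15) kept 16899 genes. Counts were normalized by TMM, fitted by the quasi-likelihood test to all 10 libraries as 5 groups and adjusted by Benjamini-Hochberg, with calls at an adjusted p below 0.05. Each knockdown is the mean of its 2 siRNA groups, with the spread shared by all groups. Standard errors were derived from F as the size of the log2 fold change over its root. The code was tested on simulated data. Replicates differed by more than sampling noise, and unequally between groups. The chi-square per gene was 54.5 for *SMARCA1* siRNA A, 38.8 for *SMARCA4* siRNA A and 20.5 for *SMARCA4* siRNA B. It was 5.89 for the controls and 3.57 for *SMARCA1* siRNA C.

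The members and lists were chosen with earlier results of these data known. From each list, counts and the called genes with the largest rise and fall were taken for naming. A further listed gene set is not reported here. The S phase and G2/M lists are those of Seurat 5.3.0. Alternatives were DESeq2 1.42.0, other scalings and filters, blocking on the replicate number, fits of fewer libraries, single siRNAs and each library left out.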

Additional observations from a re-analysis of the deposited data

Results flagged for a closer look

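In *SMARCA1* knockdown, *CDKN1A* in siRNA A replicate 2 measured 180 CPM, apart from the other 3 libraries of that knockdown (254 to 265 CPM), with a gap of 0.874 of the range of the group, above Dixon's 95% limit for 4 samples. Of 18 groups of 4 libraries examined this was the only such library, and chance alone gives about 1 in 20. Without it, *CDKN1A* still passed in *SMARCA1* knockdown. The 3 genes *CDK4*, *CDKN1A* and *CDKN1B* differed between the knockdowns by the direct test of the difference: *CDK4* (log2 -0.83, SE 0.09, adjusted p = 0.000156, edgeR) and *CDKN1A* (-0.95, SE 0.19, adjusted p = 0.00386) were lower in *SMARCA4* knockdown, and *CDKN1B* (0.29, SE 0.07, adjusted p = 0.0105) was higher.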

How the results depend on the processing

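The calls of *CCND3* (both knockdowns), *CDK4* (*SMARCA4* knockdown) and *CDKN1A* (*SMARCA1* knockdown), and those of *CDK4* and *CDKN1A* between the knockdowns, kept their direction and passed the test under each alternative run. No result that passed changed sign. Leaving out either control library lowered the genes called in *SMARCA4* knockdown from 5 to 2, since *CDK2*, *CDKN1A* and *CDKN1B* were lost. Over the fits that leave out a single library, the number called lay between 2 and 5 for *SMARCA4* knockdown, 2 and 3 for *SMARCA1* knockdown, 2 and 4 between the knockdowns, 0 and 2 between *SMARCA4* siRNAs and 0 and 1 between *SMARCA1* siRNAs. Between the *SMARCA4* siRNAs, DESeq2 called 1 gene, no filter on low counts 2 and the replicate block 1 (*CCND3*, -0.71, adjusted p = 0.0388). Between the *SMARCA1* siRNAs, DESeq2 and no filter each called 1 (*CDK4*). Over all genes, the calls in *SMARCA1* knockdown went from 7911 to 4430 and 5094 without control replicate 1 and 2, and those between the knockdowns from 5982 to 3683 without *SMARCA1* siRNA C replicate 1 and 3839 without *SMARCA4* siRNA B replicate 2. Those between the *SMARCA4* siRNAs went from 1048 to 1674 (DESeq2), 2352 (no filter) and 48 to 2907 (a library left out), and those between the *SMARCA1* siRNAs from 2 to 516, 1276, 16 (replicate block) and 0 to 1927. The cause of these differences was not tested. The labels do not say what a replicate number shares, and the numbers were not taken as pairs, since deviations from group means correlated above 0.1 in only 3 of 10 pairs of groups (range -0.10 to 0.36). Those 3 are all the pairs among *SMARCA4* siRNA A, *SMARCA4* siRNA B and *SMARCA1* siRNA A (0.36, 0.27 and 0.13), so replicates of the same number deviated together in these groups. With the replicate block the SE of *CDKN1A* in *SMARCA4* knockdown was 0.17 in place of 0.24 (0.77, adjusted p = 0.00469), and it passed as before. The call of these genes that changed with the block was that of *CCND3* between the *SMARCA4* siRNAs, which passed. Counts of *CCND2*, *CCNE1* and *CDK6* limit what could be seen for them.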
